A study of Mus musculus with 12 samples.

Results

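The 4 mouse genes of Hox paralogue group 13 are Hoxa13, Hoxb13, Hoxc13 and Hoxd13. They were picked from the table of 27179 genes by symbol, through their Entrez identifiers, and all 4 had an entry. The group was chosen on measured values, because Hoxb13 and Hoxc13 stood out among all genes in the comparison of 2 compounds at 96 h. The values of the 4 genes at 96 h, and every change that involves a 96 h library, are therefore given as descriptions without a test. The results at 240 h were also known when the group was chosen, so the tests at 240 h are no independent support for the choice. Of the 4 genes, 3 passed the filter on low counts that precedes the fit, and Hoxa13 did not.

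The libraries came from mouse embryonic fibroblasts, the connective-tissue cells that grow out of dissociated embryos. The embryos were wild-type C57BL/6 animals at day 13.5 of gestation, and the cells were grown in 3% oxygen. One set of cultures received 10 µM WM-8014, which the labels call an inhibitor of the MYST family of histone acetyltransferases, and the other received 10 µM WM-2474, which they call inactive. Cultures 5, 6 and 7 were sequenced with each compound at 96 h and at 240 h, giving 4 groups of 3 libraries. By the labels, the groups therefore differ in compound and time only, and all share the strain, genotype and oxygen level. The labels give neither the embryos behind a culture nor the part of the embryo used, and biological replicates is the term the submitters use for them.

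Hox genes encode homeodomain transcription factors and lie in 4 clusters, HoxA to HoxD, each on its own chromosome. Position in a cluster follows the body axis: low-numbered groups are used towards the head, and group 13, at the 5′ end of each cluster, is used last and farthest towards the tail, limb tips and genital tubercle. Cells taken from different sites keep part of this code in culture. In mouse embryos the MYST acetyltransferase KAT6A is known to maintain the activity of Hox genes, while Polycomb complexes keep them silent. Hoxa13 and Hoxd13 pattern the digits and the urogenital outlets, Hoxb13 acts in the tail bud and the prostate, and Hoxc13 acts in hair follicles and nails.

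The table holds raw reads per gene, from 10147466 to 45903190 per library, so that 3 reads, the most that a count of 0 allows, correspond to 0.0615 to 0.303 CPM. CPM are read counts scaled to a common library size, here with edgeR's TMM factors, which correct for differences in library composition. Of all genes, 14136 passed the count filter and were tested. The 10 fibroblast markers all passed it. The label gives female cells, yet the Y-linked Ddx3y was at 96.3 to 124 CPM, Uty at 27.6 to 32.9 CPM and Xist at 0 to 4 reads in the 12 libraries, which goes against it. Cultures 6 and 7 of the WM-2474 96 h group were unlike the rest in a few genes outside the Hox family, such as Misp3 at 0.724 to 0.943 CPM against 79.9 to 285 CPM in the other 10 libraries, so the 96 h values of the members and the main 96 h counts of the gene lists are also given without them. In whole cultures, fewer cells that express a gene and less RNA of it per cell cannot be told apart.

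The 4 genes are close in their DNA-binding part and different enough elsewhere to be counted apart. The last 60 bases of each homeobox, which encode the third helix, are shown because they encode the part of the protein that reads DNA. They were read from GENCODE M21 transcripts on mm10, and capitals mark the 24 positions at which the 4 genes are not all alike.
Hoxa13: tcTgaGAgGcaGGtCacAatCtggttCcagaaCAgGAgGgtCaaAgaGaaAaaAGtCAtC
Hoxb13: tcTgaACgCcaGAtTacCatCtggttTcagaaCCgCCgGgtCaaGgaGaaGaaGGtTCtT
Hoxc13: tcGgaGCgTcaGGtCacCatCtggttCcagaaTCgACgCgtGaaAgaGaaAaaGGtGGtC
Hoxd13: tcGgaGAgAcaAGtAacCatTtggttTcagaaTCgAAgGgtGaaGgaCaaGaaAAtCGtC
These stretches lie on chromosome 6 from 52258928 to 52258987 (reverse strand), on chromosome 11 from 96196140 to 96196199, on chromosome 15 from 102927330 to 102927389 and on chromosome 2 from 74670050 to 74670109 (all forward). Over the whole homeobox of 180 bases, pairs of the genes were 67.2 to 77.2% identical, and the longest stretch that a pair shared without a break was 16 bases. No stretch of 50 bases of their transcripts recurred in a transcript of another gene, and no other GENCODE gene overlapped a member on either strand.

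By RefSeq coordinates on GRCm38.p6, the assembly of mm10, Hoxa13 (Entrez 15398) spans 52258853 to 52260880 on chromosome 6. Hoxb13 (Entrez 15408) spans 96194316 to 96196610 on chromosome 11. Hoxc13 (Entrez 15422) spans 102921131 to 102928814 on chromosome 15, and Hoxd13 (Entrez 15433) spans 74668225 to 74671603 on chromosome 2. The 4 genes thus sit on 4 chromosomes, and no deposited read count is shared by position. RefSeq promoter windows, from 250 bases before to 50 after the annotated start, were at hand for Hoxd13 and Hoxa13. They are shown for their base composition, with capitals on matches, on either strand, to the TATA box (TATAAA), the GC box (GGGCGG) and the CCAAT box.
Hoxd13: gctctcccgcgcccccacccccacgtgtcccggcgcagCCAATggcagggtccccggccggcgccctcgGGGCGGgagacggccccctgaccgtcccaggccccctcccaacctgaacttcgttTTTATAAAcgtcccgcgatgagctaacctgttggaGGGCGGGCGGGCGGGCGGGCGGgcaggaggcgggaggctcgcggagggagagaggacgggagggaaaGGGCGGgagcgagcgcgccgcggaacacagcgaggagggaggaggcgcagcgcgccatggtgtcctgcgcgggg
Hoxa13: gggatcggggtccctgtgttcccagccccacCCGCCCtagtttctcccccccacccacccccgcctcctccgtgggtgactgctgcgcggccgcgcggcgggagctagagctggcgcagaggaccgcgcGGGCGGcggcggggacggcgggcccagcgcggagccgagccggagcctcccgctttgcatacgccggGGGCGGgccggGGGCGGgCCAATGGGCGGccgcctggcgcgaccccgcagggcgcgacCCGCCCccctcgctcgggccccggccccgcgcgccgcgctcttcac
The Hoxd13 window (chromosome 2, 74667975 to 74668274) held 37 CpG dinucleotides and was 74.3% G and C, and the Hoxa13 window (chromosome 6, 52260831 to 52261130) held 45 and was 81%. The median over 32851 such windows was 7 CpG, and 5.58% and 1.93% of them held as many as Hoxd13 and Hoxa13. TATAAA was in the Hoxd13 window, as 2 matches that overlap on the 2 strands, and in 13.6% of all windows. GGGCGG matched 7 times in the Hoxd13 window, several of them overlapping, 6 times in that of Hoxa13, and at least once in 35.7% of all windows, while CCAAT matched once in each and in 37.4% of all.

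Hoxc13 was the best-measured member. It had 15, 17 and 37 reads in cultures 5, 6 and 7 with WM-2474 at 96 h (1.39, 1.23 and 0.758 CPM). With WM-8014 at 96 h it had 79, 95 and 63 reads (5.37, 6.48 and 4.26 CPM). All 3 WM-8014 libraries lay above all 3 WM-2474 libraries at 96 h, and the culture with the deepest WM-2474 library had the lowest CPM of its group. At 240 h Hoxc13 had 13, 20 and 12 reads with WM-2474 (0.697, 0.889 and 0.594 CPM). Under WM-8014 the same cultures had 117, 382 and 241 reads (11.8, 13.2 and 13.9 CPM). The groups at 240 h were again apart, with the lowest WM-8014 library far above the highest WM-2474 library.

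At 240 h Hoxc13 rose 17.7-fold with WM-8014, from 0.727 ± 0.15 to 13 ± 1.1 CPM (SD, n = 3 cultures each). The log2 fold change was 4.15 with a standard error of 0.196 and a 95% interval of 3.74 to 4.55 (edgeR quasi-likelihood test, Benjamini-Hochberg adjusted p = 2.13e-12). It was the largest rise among the 14136 genes tested at 240 h. At 96 h the mean went from 1.13 ± 0.33 to 5.37 ± 1.1 CPM, a log2 fold change of 2.47, rank 3 among the rises of all genes tested. This log2 fold change became 2.04 without culture 7 of the WM-2474 96 h group and 1.94 without its cultures 6 and 7. Between same-numbered cultures the ratio of CPM was 3.85, 5.27 and 5.62 at 96 h and 16.9, 14.9 and 23.4 at 240 h, in the order of cultures 5, 6 and 7, so each culture showed a wider gap at the later time.

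Hoxb13 had 3, 4 and 29 reads in cultures 5, 6 and 7 with WM-2474 at 96 h (0.279, 0.289 and 0.594 CPM). With WM-8014 at 96 h it had 30, 52 and 52 reads (2.04, 3.55 and 3.52 CPM). The high read number with WM-2474 came from the deepest library, which in CPM was also the highest of its group and still below every WM-8014 library. At 240 h Hoxb13 had 7, 3 and 4 reads with WM-2474 (0.375, 0.133 and 0.198 CPM). Under WM-8014 the same cultures had 33, 83 and 58 reads (3.33, 2.87 and 3.35 CPM). The groups did not overlap at either time, and the WM-8014 libraries of 240 h lay within the range of those of 96 h.

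At 240 h Hoxb13 rose 13.4-fold, from 0.236 ± 0.13 to 3.18 ± 0.27 CPM (n = 3 each). The log2 fold change was 3.74, with a standard error of 0.346 and a 95% interval of 3.02 to 4.46 (edgeR adjusted p = 1.85e-08), and it was higher in 3 of 3 cultures. Hoxb13 entered the test mainly through WM-8014, with 6 WM-8014 libraries and 1 WM-2474 library at or above the filter's minimum. At 96 h the means were 0.387 ± 0.18 and 3.03 ± 0.86 CPM. The log2 fold change at 96 h was 2.65, rank 2 among the rises of all genes tested. It became 3.38 without culture 7 of the WM-2474 96 h group and 3.41 without its cultures 6 and 7. The calls of Hoxb13 and Hoxc13 at 240 h passed the threshold of 0.05 in each of the 21 alternative settings. The edgeR adjusted p was at most 7.79e-06 and 5.01e-09. Several of these settings left out 96 h libraries only and kept every 240 h library, so the settings are not separate tests.

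Hoxd13 was less well measured and less even between cultures. With WM-2474 at 96 h it had 11, 1 and 21 reads in cultures 5, 6 and 7 (1.02, 0.0724 and 0.43 CPM). With WM-8014 at 96 h it had 16, 7 and 11 reads (1.09, 0.477 and 0.744 CPM). The 96 h groups overlapped, because culture 5 was as high with one compound as with the other. At 240 h it had 7, 1 and 1 reads with WM-2474 (0.375, 0.0445 and 0.0495 CPM). Under WM-8014 the same cultures had 5, 18 and 14 reads (0.504, 0.622 and 0.808 CPM). In CPM the 240 h groups were apart, but culture 5 with WM-2474 lay close to culture 5 with WM-8014. In reads the groups overlapped, with 7 reads in the former and 5 in the latter.

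Mean Hoxd13 at 240 h was 0.156 ± 0.19 CPM under WM-2474 against 0.645 ± 0.15 CPM under WM-8014, a fitted rise of 4.33-fold (log2 fold change 2.12, standard error 0.685, 95% interval 0.67 to 3.56, edgeR adjusted p = 0.0188). Hoxd13 entered the test mainly through WM-8014, with 3 WM-8014 libraries and 1 WM-2474 library at or above the filter's minimum. The call also rested on single libraries. It was lost without culture 6 of the WM-2474 240 h group (log2 fold change 1.64, adjusted p = 0.0832 in the same test) or without culture 7 of that group (1.72, adjusted p = 0.0772). It was also lost without culture 7 of the WM-8014 240 h group (1.96, adjusted p = 0.0572), and without culture 5 of the WM-2474 240 h group the log2 fold change was 3.64 (edgeR adjusted p = 0.00182). At 96 h the means were 0.508 ± 0.48 and 0.769 ± 0.31 CPM, a log2 difference of 0.75 that became -0.41 without cultures 6 and 7 of the WM-2474 96 h group. In culture 5 the CPM ratio of WM-8014 to WM-2474 was 1.06 at 96 h and 1.34 at 240 h, while in cultures 6 and 7 it was 14 and 16.3 at 240 h.

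Hoxa13 was close to the limit of counting. It had 0, 0 and 2 reads with WM-2474 and 2, 2 and 0 reads with WM-8014 at 96 h, in the order of cultures 5, 6 and 7 (0, 0 and 0.041 CPM against 0.136, 0.136 and 0 CPM). At 240 h it had 1, 1 and 0 reads with WM-2474 and 1, 4 and 6 reads with WM-8014 (0.0536, 0.0445 and 0 CPM against 0.101, 0.138 and 0.346 CPM). In CPM the groups overlapped at 96 h and not at 240 h. In reads they tied at 240 h, with 1 read in a library of each compound. Summed over cultures, the reads were 2, 4, 2 and 11 in the WM-2474 96 h, WM-8014 96 h, WM-2474 240 h and WM-8014 240 h groups, with the group of 11 reads standing out by a few reads only. The ratio of WM-8014 to WM-2474, per TMM-scaled library size, was 3.32 at 96 h (exact 95% counting interval 0.476 to 36.7) and 6.01 at 240 h (1.31 to 55.8). These intervals cover counting error alone. When all 21130 genes with any read were kept in the fit, the log2 fold change at 240 h was 2.38 (edgeR adjusted p = 0.0632), which did not pass.

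**Figure D1:**
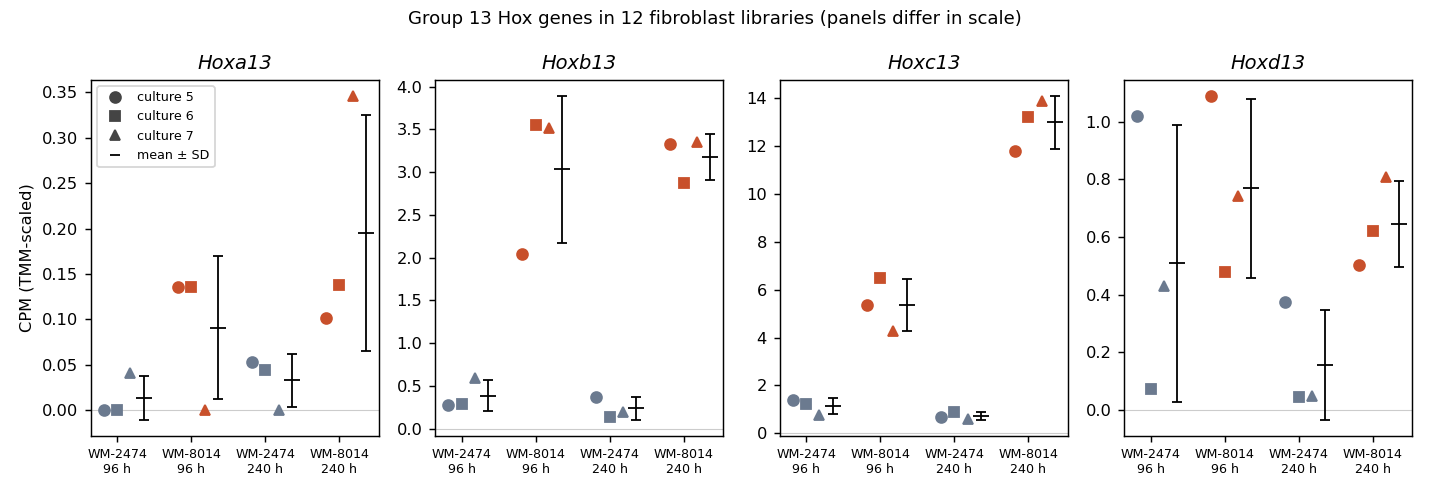
TMM-scaled CPM (vertical axis, a different scale in each panel) of the 4 genes in the 12 libraries, by compound and time (horizontal axis); circles, squares and triangles stand for cultures 5, 6 and 7, and bars give mean ± SD (n = 3). Hoxc13 reached 11.8 to 13.9 CPM with WM-8014 at 240 h, Hoxb13 was at 2.04 to 3.55 CPM with WM-8014 at both times, and culture 5 was the highest WM-2474 library for Hoxd13 at both times.

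Each of Hoxb13, Hoxc13 and Hoxd13 was called higher at 240 h, in a comparison in which 21.2% of the genes tested were called higher and 21.4% lower. The count filter asked for 0.613 CPM in 3 libraries, before TMM scaling. Hoxb13 met it in 6 WM-8014 and 1 WM-2474 libraries and Hoxd13 in 3 and 1, so these genes entered the test mainly through the compound with the higher level, and their number carries no weight of its own. Hoxc13 met it in 6 and 5 libraries. At 96 h, 10.9% of the genes tested were called higher and 11.8% lower, and no call is given for the 4 genes. Groups that did not overlap, with WM-8014 above WM-2474, were found for Hoxb13 and Hoxc13 at 96 h, where 18.1% of the genes tested showed this. At 240 h they were found in CPM for Hoxb13, Hoxc13 and Hoxd13, where 26.2% of the genes tested showed it. In reads, the 240 h groups of Hoxd13 overlapped. Hoxa13, which is not among the genes tested, was apart in CPM but tied in reads, with 1 read in a library of each compound.

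Both comparisons with time were descriptions. Under WM-2474, Hoxc13 went from 1.13 ± 0.33 CPM at 96 h to 0.727 ± 0.15 CPM at 240 h, Hoxb13 from 0.387 ± 0.18 to 0.236 ± 0.13 CPM (a log2 difference of -1.04, or -0.28 without cultures 6 and 7 of the WM-2474 96 h group) and Hoxd13 from 0.508 ± 0.48 to 0.156 ± 0.19 CPM. The 96 h and 240 h libraries overlapped for all 3, against 25% of the genes tested whose 240 h libraries lay wholly below. Under WM-8014, Hoxc13 went from 5.37 ± 1.1 to 13 ± 1.1 CPM, a log2 difference of 1.28, with all 240 h libraries above all 96 h libraries, as for 27.7% of the genes tested. Hoxb13 was at 3.03 ± 0.86 and 3.18 ± 0.27 CPM (0.05) and Hoxd13 at 0.769 ± 0.31 and 0.645 ± 0.15 CPM (-0.22), and both overlapped between times. Hoxc13 was thus 2.2, 2.04 and 3.26 times as high at 240 h as at 96 h with WM-8014 in cultures 5, 6 and 7, while for Hoxb13 the ratios were 1.63, 0.809 and 0.952.

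The difference between the compound effects at 240 h and 96 h was 1.68 on the log2 scale for Hoxc13, 1.09 for Hoxb13 and 1.36 for Hoxd13. For Hoxc13 it was 2.20 without cultures 6 and 7 of the WM-2474 96 h group, and for Hoxb13 it was 0.32. The value of Hoxb13 was thus much smaller without these libraries, and that of Hoxc13 was larger. For Hoxd13 it was 2.51 without the same libraries and 2.88 without culture 5 of the WM-2474 240 h group.

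Levels of different genes were compared per length, as RPKM, the CPM divided by kilobases, over the deposited gene lengths. With WM-2474 at 96 h the mean RPKM was 0.463 ± 0.14 for Hoxc13, 0.295 ± 0.14 for Hoxb13, 0.205 ± 0.19 for Hoxd13 and 0.0104 ± 0.018 for Hoxa13. The first 3 lay within one another's spread. With WM-8014 at 96 h Hoxb13 (2.31 ± 0.66 RPKM) and Hoxc13 (2.21 ± 0.46 RPKM) did not differ beyond their spread, and Hoxd13 (0.31 ± 0.12 RPKM) and Hoxa13 (0.0691 ± 0.06 RPKM) lay lower. At 240 h with WM-8014 the order was Hoxc13 (5.33 ± 0.44 RPKM), Hoxb13 (2.42 ± 0.21 RPKM), Hoxd13 (0.26 ± 0.062 RPKM) and Hoxa13 (0.149 ± 0.1 RPKM), with the last 2 close together. The deposited lengths of Hoxa13 and Hoxb13 are both 1313 bases, against 2472 and 2206 bases of GENCODE exons, so their RPKM may be set too high; those of Hoxc13 (2433 bases) and Hoxd13 (2482 bases) are close to the GENCODE exons.

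Among the 39 Hox genes of the table, ordered by mean RPKM, Hoxc13 stood in place 32 with WM-2474 at 96 h and 28 with WM-8014, and in places 30 and 16 at 240 h. Hoxb13 stood in places 34 and 26 at 96 h and 33 and 22 at 240 h. Hoxd13 and Hoxa13 were among the lowest in every group, with places from 33 to 38. Even at its highest, Hoxc13 was well below Hoxc6, a gene of the thoracic level in the same cluster, which was at 40.3 RPKM with WM-8014 at 240 h.

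**Figure D2:**
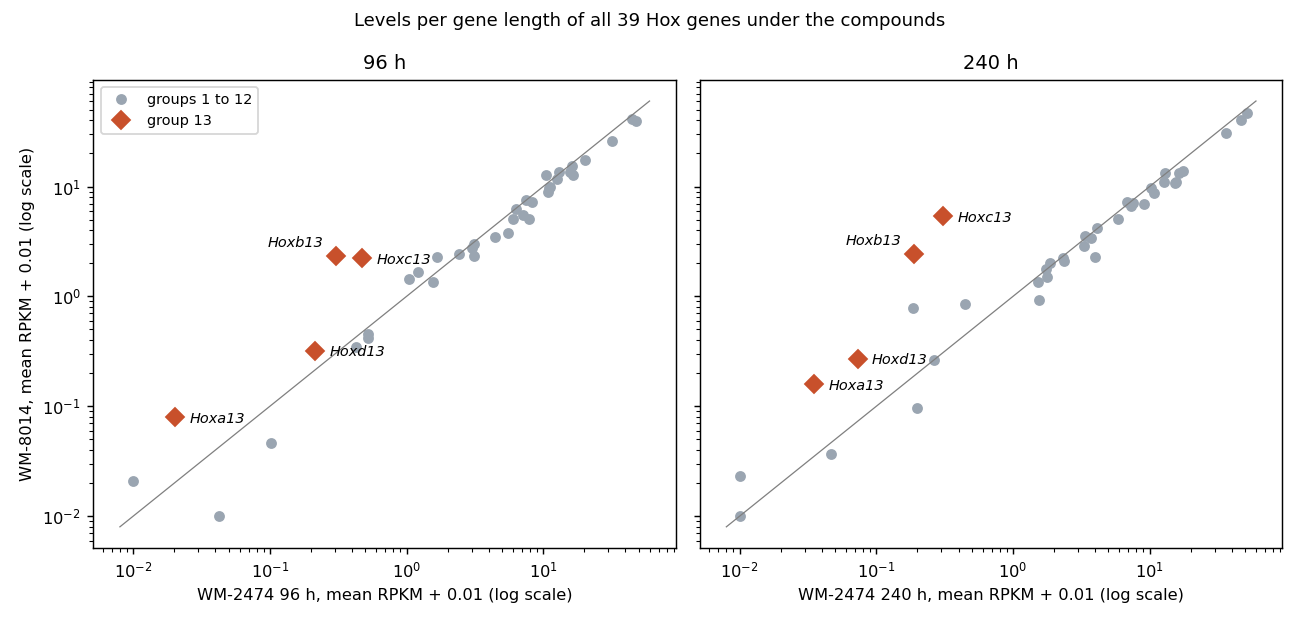
Mean RPKM plus 0.01 of each of the 39 Hox genes with WM-8014 (vertical axis, log scale) against WM-2474 (horizontal axis, log scale) at 96 h and 240 h; diamonds are group 13, grey points groups 1 to 12, and the line marks equal levels. Hoxc13 moved from 0.299 to 5.33 RPKM and Hoxb13 from 0.179 to 2.42 RPKM at 240 h, while most other Hox genes lie near the line.

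Over all genes tested, 21.2% were called higher and 21.4% lower at 240 h, and 10.9% and 11.8% at 96 h. These shares are the background for the gene lists from here on. The Hox genes of groups 1 to 12 are the closest comparison, and 30 of 35 passed the count filter. At 240 h, where Hoxc13 and Hoxb13 rose, 0 of these 30 rose, 11 fell and 19 showed no call, with a median log2 fold change of -0.15 against 0.01 over all genes tested (edgeR, adjusted p under 0.05). The highest value was that of Hoxc11, which acts in hindlimb and kidney patterning, at 1.01 (edgeR adjusted p = 0.104, or 0.0381 when culture numbers entered the fit as a block). In 12 of the 21 alternatives 1 or more of groups 1 to 12 were called higher at 240 h, so the count of 0 depends on the setting. At 96 h, 1 rose, 8 fell and 21 showed no call, with a median of -0.20 against 0, and with the culture numbers as a block 2 rose and 12 fell. The 8 became 4 without culture 7 of the WM-2474 96 h group, 5 without culture 5 of the WM-8014 96 h group and 1 without cultures 6 and 7 of the former, and the 1 that rose, Hoxd8 (0.30, edgeR adjusted p = 0.0199), was lost in each of these 3 runs. At 240 h Hoxd8 fell by 0.50 (edgeR adjusted p = 7.01e-05), a call kept in all 21 alternatives, and the difference between the times was not tested.

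The fold changes of groups 1 to 12 ran from -0.68 (Hoxa6) to 0.57 (Hoxc11) at 96 h and from -0.80 (Hoxd4) to 1.01 (Hoxc11) at 240 h. Hoxd4, a gene of the hindbrain and neck border, fell from 10.2 ± 0.011 to 5.83 ± 0.57 CPM at 240 h (edgeR adjusted p = 1.02e-05). Hoxc9, a gene of the thoracic level, fell by 0.37 at 96 h and by 0.50 at 240 h (edgeR adjusted p = 0.00157 and 1.77e-05). Of the more posterior groups, Hoxc10, a lumbar gene of the HoxC cluster, was at 19.7 ± 2.9 and 18.4 ± 2.4 CPM at 240 h and did not pass (log2 fold change -0.10, edgeR adjusted p = 0.663). Neither did Hoxa10 (0.04, edgeR adjusted p = 0.941), Hoxa11 (-0.13, 0.793) and Hoxd10 (-0.21, 0.755). The HoxC cluster thus held Hoxc4, Hoxc6, Hoxc8 and Hoxc9, which fell at 240 h, beside Hoxc13, which rose.

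**Figure D3:**
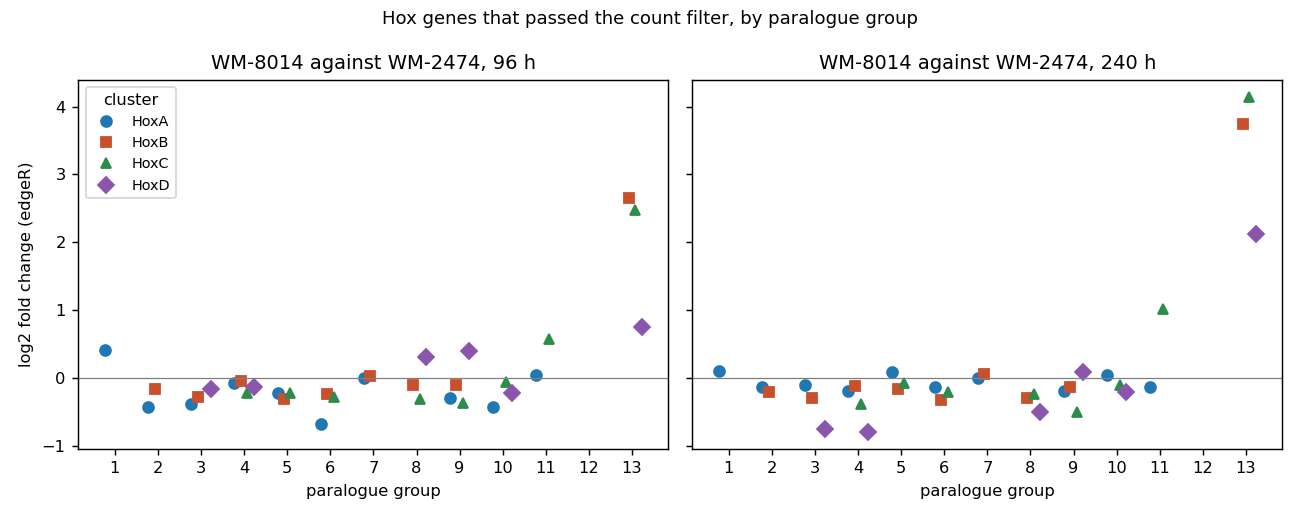
Log2 fold change of WM-8014 against WM-2474 (vertical axis, edgeR) at 96 h and 240 h for the 33 Hox genes that passed the count filter, by paralogue group (horizontal axis) and cluster (colour and shape). At 240 h the 30 genes of groups 1 to 12 lie between -0.80 and 1.01, and Hoxd13, Hoxb13 and Hoxc13 at 2.12, 3.74 and 4.15. Hoxc12 missed the filter and is not drawn, and with no filter its value at 240 h was 1.94.

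Among the genes of groups 10 to 12, Hoxc12, the next gene to Hoxc13 in its cluster, had too few reads for the filter. At 240 h it had 4, 4 and 1 reads with WM-2474 and 10, 13 and 9 reads with WM-8014 in cultures 5, 6 and 7. The WM-8014 libraries lay above the WM-2474 libraries, in reads and in CPM. Hoxd13 had 9 and 37 summed reads at 240 h and a log2 fold change of 2.11 with no filter (edgeR adjusted p = 0.0107). Hoxc12, with 9 and 32 summed reads, was close to it, at 1.94 with no filter (edgeR adjusted p = 0.0114). It was called higher at 240 h in 11 of the 21 alternatives, most of them with a library left out, at log2 fold changes of 1.93 to 2.24 (edgeR adjusted p = 0.0114 to 0.0383). At 96 h it had 9, 4 and 8 reads with WM-2474 and 6, 8 and 1 reads with WM-8014, and the groups overlapped. Hotair, a long non-coding RNA between Hoxc11 and Hoxc12, had 6 reads with WM-2474 and 14 with WM-8014 over the 240 h groups.

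Genes within 100 kb of a member were looked up by RefSeq position, a rule chosen after values had been seen. Of 49 such genes with an entry, 33 were tested, and at 240 h 2 rose and 10 fell, against 21.2% and 21.4% of all genes tested. Among the 7 tested that are no Hox genes, 2 rose and 1 fell. The 2 that rose lie 55050 and 68554 bases from Hoxb13, towards Hoxb9. They are the long non-coding RNA Gm53, at 32 ± 2.2 and 44.7 ± 1.9 CPM (log2 fold change 0.48, edgeR adjusted p = 4.64e-06), and the locus of the microRNA Mir196a-1 (0.55, edgeR adjusted p = 0.007, and 0.148 without culture 7). The miR-196 family is known to target Hox messages. These libraries were poly(A)-selected, so reads at this locus do not measure the mature microRNA, and any effect on Hox genes was not tested.

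Gm11538, a long non-coding RNA whose RefSeq span begins 6844 bases beyond Hoxb13 on chromosome 11 (96203454 to 96205480), had too few reads to be tested. It had no read in the WM-2474 240 h group and 3, 14 and 4 reads in cultures 5, 6 and 7 with WM-8014. The pooled level with WM-8014, 0.374 CPM, was at least 7.65-fold higher than the level that 3 reads over the WM-2474 group would give. At 96 h it had 1 read with WM-2474 and 3 with WM-8014. On the far side of the other clusters, Evx1 and Evx2, the even-skipped genes next to Hoxa13 and Hoxd13, had no read in any library. Of 11 listed non-coding and flanking genes of the clusters, 2 were tested. Hoxaas3 fell by 0.83 at 96 h (edgeR adjusted p = 0.0181, a call lost in 8 of the 21 alternatives) and Hoxa11os did not pass (0.22, edgeR adjusted p = 0.636), and neither passed at 240 h. By position, 2 more tested non-coding genes lie in the HoxA cluster, of which 5730596B20Rik fell by 0.57 at 96 h (edgeR adjusted p = 0.0333) and Mira did not pass (-0.21, edgeR adjusted p = 0.176). Hoxd11 and Hoxd12, next to Hoxd13, had 11 and 0 reads with WM-2474 and 5 and 1 with WM-8014 at 240 h.

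Proteins that bind DNA together with Hox factors were the second comparison. Of 9 TALE homeodomain genes, 1 rose, 4 fell and 4 had no call at 240 h (median -0.07), and 2 fell at 96 h (median -0.03). The 2 at 96 h, Meis1 and Meis2, became 1 without culture 6 or 7 of the WM-2474 96 h group or culture 6 of the WM-8014 96 h group, and 0 without both cultures 6 and 7 of the former, or with culture 6 or culture 7 left out of every group. Meis1, a cofactor used in the proximal part of the mouse limb, fell from 28.1 ± 1.2 to 19.8 ± 1.2 CPM at 240 h (log2 fold change -0.52, edgeR adjusted p = 2.66e-06). Pknox2 fell from 5.43 ± 0.28 to 2.82 ± 0.74 CPM (-1.01, edgeR adjusted p = 6.68e-05) and Pknox1 by 0.36 (edgeR adjusted p = 0.000152). These 3 partners were thus among the 4 that were lower at the time at which Hoxb13 and Hoxc13 rose.

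Of 14 chromatin regulators known to act on Hox genes, 2 rose, 8 fell and 4 had no call at 240 h, and 2 rose and 4 fell at 96 h, with medians of -0.16 and -0.10. Without cultures 6 and 7 of the WM-2474 96 h group, 1 rose and 2 fell at 96 h. Among activators, Men1, the menin partner of MLL methyltransferases, fell by 0.51 at 240 h, from 69.1 ± 3.9 to 48.3 ± 0.32 CPM (edgeR adjusted p = 1.93e-08), and by 0.37 at 96 h (1.19e-05). Brpf1, a subunit of MYST complexes, fell by 0.38 at 96 h (edgeR adjusted p = 4.6e-05). Kat6a fell from 92.9 ± 3.5 to 80.5 ± 0.22 CPM at 240 h (-0.21, edgeR adjusted p = 0.000233), and its paralogue Kat6b rose by 0.28 (9.67e-05). Among the Polycomb genes, Ezh2, the methyltransferase of repressive complex 2, fell from 31.6 ± 1.2 to 16 ± 1.3 CPM (-0.97, edgeR adjusted p = 1.04e-09), and its partner Suz12 fell by 0.28 (7.16e-06). Bmi1 of repressive complex 1 rose from 58.1 ± 1 to 70.2 ± 2 CPM (0.27, edgeR adjusted p = 2.92e-05). Activating and repressing regulators were thus found among both the genes that rose and those that fell. Any part of these genes in the rise of Hoxb13 and Hoxc13 was not tested.

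**Figure D4:**
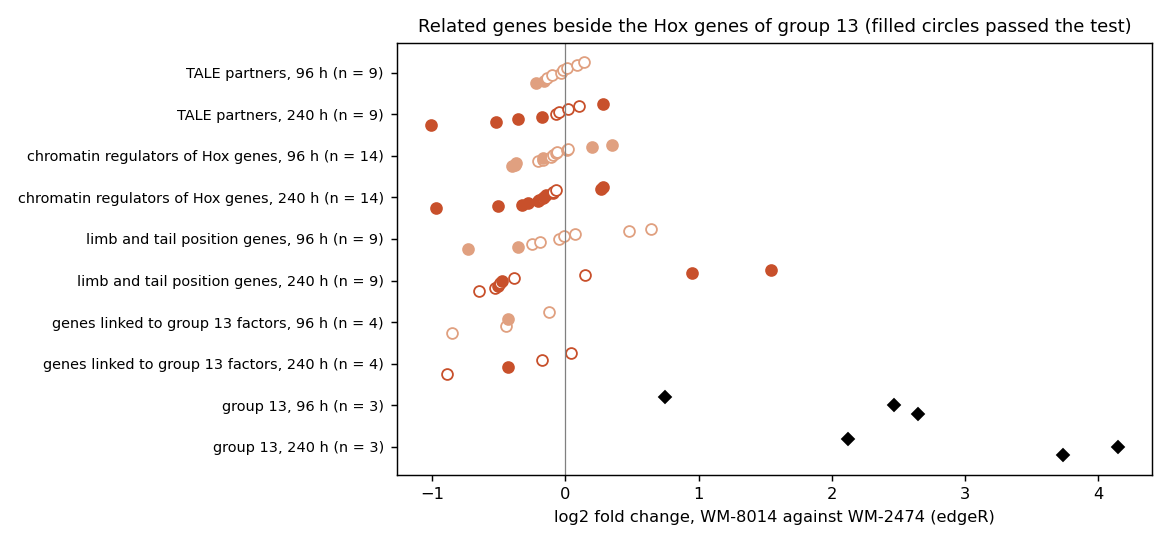
Log2 fold change of WM-8014 against WM-2474 (horizontal axis, edgeR) for the tested genes of 4 lists and of group 13 (rows, with the number tested); filled circles passed the test at adjusted p under 0.05, open circles did not, and black diamonds are the members, drawn without a call. At 240 h the lists run from -1.01 (Pknox2) to 1.54 (Isl1), and group 13 from 2.12 to 4.15.

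Genes of limb and tail position were sparse. Of 18, 9 were tested, and at 240 h 2 rose, 2 fell and 5 had no call (median -0.48), while at 96 h 2 fell (median -0.05), Lhx9 and En1, and the call of En1 was lost in 4 of the 21 alternatives and that of Lhx9 in 1. Isl1, a factor of the early hindlimb field, rose from 0.61 ± 0.15 to 1.79 ± 0.081 CPM (log2 fold change 1.54, edgeR adjusted p = 0.000163), and Msx2, which acts in limb mesenchyme, rose by 0.95 (edgeR adjusted p = 0.00431, and 0.105 without culture 5). En1, which marks the ventral side of the limb bud, fell by 0.48 (edgeR adjusted p = 0.000421), and Lhx9, which acts in early limb outgrowth, fell by 0.51 (edgeR adjusted p = 0.00768, and 0.0791 without culture 5). Pitx1, which sets hindlimb identity, was at 7.4, 6.76 and 0.594 CPM in cultures 5, 6 and 7 with WM-2474 at 240 h, and at 4.44, 3.87 and 1.21 CPM with WM-8014. Culture 7 had the lowest Pitx1 level in all 4 groups, and any link to Hoxb13 and Hoxc13 was not tested. Shh, Cdx4 and the other tail genes Cdx1, Cdx2 and T did not pass the filter.

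Of 8 genes in the table that have been tied to group 13 factors in mouse, 4 were tested, and 1 fell at both times (medians -0.44 at 96 h and -0.30 at 240 h). Epha7, a receptor that Hoxa13 is reported to drive in the limb, fell by 0.43 at each time (edgeR adjusted p = 0.000937 at 96 h and 0.000957 at 240 h, the latter 0.0726 without culture 6). Bmp2, Aldh1a2 and Hand2 did not pass at either time. Foxn1, a hair and nail gene downstream of Hoxc13, had 6 reads with WM-2474 and 11 with WM-8014 over the 240 h groups, and the hair keratin gene Krt35 had 1 and 0. None of the 4 genes tested was called higher at either time, and the rest had too few reads to be tested.

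Markers of other cell types were read beside these results. At 240 h the summed CPM of the 7 epithelial and keratinocyte markers was 1.09 to 1.39 with WM-2474 and 1.07 to 2.32 with WM-8014, with Krt5 at 3 and 2 reads and Krt14 at 4 and 20 reads over the groups. The 4 muscle markers summed to 28.1 to 34.8 and 81.7 to 106 CPM, nearly all of it Des, which rose by 1.61 (edgeR adjusted p = 1.01e-07), while the defining factors Myod1 and Myog had 1 and 3 reads with WM-2474 and 0 and 1 with WM-8014. The 3 leukocyte markers summed to 1.63 to 3.06 and 4.62 to 6.25 CPM through Csf1r, which rose by 1.27 (edgeR adjusted p = 1.51e-05). Ptprc and Adgre1 had 7 and 4 reads with WM-2474 and fewer, 3 and 1, with WM-8014. The 4 endothelial markers summed to 1.87 to 2.62 and 1.82 to 2.19 CPM, the 4 neural markers to 72.8 to 89.8 and 60.5 to 71.5 CPM, and the 3 cartilage markers to 87.9 to 130 and 84.5 to 125 CPM. Of the neural markers, 3 fell at 240 h, Sox10, Sox2 and Map2 (edgeR adjusted p = 0.000228, 0.0446 and 1.51e-07). The 10 fibroblast markers summed to 49700 to 52100 CPM under WM-2474, against 53000 to 54100 CPM under WM-8014, and 2 of them rose and 2 fell. At 96 h the muscle sums were 20.3 to 24.4 and 31.2 to 34 CPM and the endothelial sums 4.99 to 6.11 and 3.14 to 4.53 CPM, both apart. Of the endothelial markers, Kdr fell by 0.96 at 96 h and by 0.79 at 240 h (edgeR adjusted p = 0.00706 and 0.0337). The others did not go down with it at 240 h. Cdh5 and Tek had log2 fold changes of 0.67 and 0.32 without a call. Pecam1 had 3 reads with WM-2474 and 10 with WM-8014. At 240 h, where Hoxb13 and Hoxc13 rose, the muscle, leukocyte and fibroblast sums thus lay wholly higher with WM-8014, and the neural sums wholly lower. Of the single genes tested, 26.2% lay wholly higher with WM-8014 at 240 h and 18.1% at 96 h. Any part of these markers in the result was not tested.

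Across the 12 libraries, log2 CPM of Hoxb13 and Hoxc13 had a Pearson correlation of 0.915, and those of Hoxd13 with the 2 were 0.674 and 0.605. These values describe libraries that share 4 groups and 3 cultures. Of 11986 genes with a mean log2 CPM of at least 1, the pattern most like that of Hoxc13 was that of Alas1, the first enzyme of haem synthesis (r = 0.978), followed by the BMP antagonist gene Grem1 (0.976), Trim2 (0.976), Dpy19l1 (0.973) and Tnfrsf1b (0.972). The mean of Grem1 at 240 h was 231 CPM under WM-2474, against 523 CPM under WM-8014. The patterns most like Hoxb13 were those of Sncg (0.975), which encodes gamma-synuclein, Pyroxd2 (0.969), the glucocorticoid receptor gene Nr3c1 (0.969), Fuca2 (0.967) and 5730409E04Rik (0.967). For Hoxd13 the 5 most alike were Pdzd2 (0.931), Znrd1as (0.909), Nek8 (0.884), Ifit3 (0.883) and Sfi1 (0.88), a looser fit than for the other 2 members. None of these 15 is a Hox gene.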

How the data were processed

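RNA was isolated on columns (RNeasy) and made into poly(A)-selected libraries that keep strand, per the labels' protocols. The deposited table gives the authors' raw read counts per Entrez gene, for which the submitters' processing notes list featureCounts and mm10. Which aligner, annotation and strand setting were used is not given in the sources used here. Of 27179 identifiers, 25275 (93%) matched a symbol in RefSeq GRCm38.p6. The deposited gene lengths were used for RPKM only.

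Counts were tested with edgeR 4.0.16 in R 4.3.3 (TMM factors, filterByExpr by group with a minimum count of 10, robust quasi-likelihood F test, 4 group means over 12 libraries, two-sided, Benjamini-Hochberg over 14136 genes). Counts of called genes use an adjusted p under 0.05, and the biological coefficient of variation was 4.64%. Standard errors are the absolute log2 fold change over the square root of F. Log2 CPM by library used a prior count of 2. Replicates differed by more than sampling noise (chi-square per degree of freedom 2.1 to 7.13), so none was counted as a duplicate. The culture numbers come from the labels. Deviations of same-numbered libraries from their group means correlated by 0.14 to 0.16 at 96 h, above 0.1 in every pair, and by 0.048 to 0.24 at 240 h. These correlations were weak at both times. The main fit took no pairs at either time, and the culture number as a block was an alternative. Ratios and differences between same-numbered cultures are descriptions. The scripts were tested on simulated data.

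The members and the gene lists were chosen with earlier results of these data known. Named were all members, up to 4 genes a list with the smallest p at each time, all Hox genes of groups 10 to 12, and the 5 genes most like each tested member. Other list genes, the marker genes and the neighbours were named after their values were seen. One gene that the rule names is not reported here. The 240 h libraries come from the same cultures as the 96 h libraries and their results were also known, so the tests at 240 h are no independent support for the choice. Alternatives were DESeq2 1.42.0 and its size factors, no filter, the culture number as a block, each library or culture left out, cultures 6 and 7 of the WM-2474 96 h group left out, and all libraries thinned to 10147466 reads. Intervals on read numbers are exact and cover counting error only.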

Additional observations from a re-analysis of the deposited data

Results flagged for a closer look

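From 96 to 240 h, Hoxc13 went down in each of cultures 5, 6 and 7 under WM-2474 (log2 differences of -0.90, -0.43 and -0.31) and up in each under WM-8014 (1.12, 1.02 and 1.68). The fitted difference between these changes was 1.68 on the log2 scale. It drew attention because every culture of one group moved one way and every culture of the other the opposite way. The difference was not tested, since the gene was chosen on the 96 h libraries that enter it.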

How the results depend on the processing

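Of 21 alternatives, all left Hoxb13 (log2 fold change 3.44 to 4.2) and Hoxc13 (3.97 to 4.41) called higher at 240 h. Hoxd13, at 2.12, had 1.56 to 3.74 with a library or culture left out, adjusted p 0.00141 to 0.25, and no value when thinned, because it missed the filter. The replicate block, by culture number, gave 2.73, 2.44 and 0.69 for Hoxb13, Hoxc13 and Hoxd13 at 96 h. At 240 h it gave 3.72, 4.14 and 2.30. Of groups 1 to 12 it called 2 higher and 12 lower at 96 h, and 1 higher (Hoxc11) and 12 lower at 240 h.

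With a library or culture left out, the 96 h values ran from 2.39 to 3.38 (Hoxb13) and from 2.04 to 2.61 (Hoxc13). The change under WM-2474 ran from -1.61 to -0.22 (Hoxb13), -0.82 to -0.21 (Hoxc13) and -3.10 to -1.11 (Hoxd13), and the difference between compound effects from 0.33 to 1.55, 1.53 to 2.11 and 0.89 to 2.90. Groups 1 to 12 then gave 0 to 1 higher and 4 to 11 lower at 96 h, and 0 to 2 higher at 240 h.

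Without cultures 6 and 7 of the WM-2474 96 h group, the values were 3.41, 1.94 and -0.41 at 96 h for Hoxb13, Hoxc13 and Hoxd13, -0.28, -0.92 and -2.73 over time under WM-2474, and 0.32, 2.20 and 2.51 for the difference. That fit has 1 library in the group, assumed to vary like the others, and called 0 of groups 1 to 12 higher and 1 lower at 96 h and 1 higher at 240 h. It called 432 of all genes higher and 437 lower at 96 h, against 1544 and 1674, and without culture 7 of that group alone 977 and 1076. After thinning, Hoxb13 was at 3.12 at 96 h with a difference of 0.43, Hoxc13 at -0.73 over time, and 0 of groups 1 to 12 rose at 96 h. With no filter, 1 rose at 240 h, Hoxc12, as in 10 runs with libraries left out. The cause of these shifts was not tested. With 1 to 37 reads in a WM-2474 library, counting limits all 3 fold changes.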
